A study of Mus musculus with 4 samples.

Results

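Integrin and laminin genes were followed in primary mouse calvarial cells, the mixed bone-forming and connective tissue cells released from skull bone by collagenase. Members were the rows of the expression table whose symbol named an integrin alpha subunit, an integrin beta subunit or a laminin chain, which gave 37 of 19171 listed genes: 18 alpha integrins, 8 beta integrins and 11 laminin chains. The symbol alone decides which genes belong, although the families themselves were taken up with earlier results of these data known.

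The 4 libraries came from C57BL/6 mice at postnatal day 10. All 4 carried floxed alleles of the miR-17-92 cluster and lacked the miR-106b-25 cluster, so the controls shared the miR-106b-25 deletion. The 2 Cre libraries were made from cells infected with an adenovirus that expressed Cre recombinase, which removes floxed DNA, and the 2 YFP libraries from cells infected with an adenovirus that expressed yellow fluorescent protein. RNA was taken 3 days after a single infection, at a virus amount chosen so that more than 80% of cells were infected, and polyadenylated RNA was sequenced. The virus acted on whatever cells the culture held, and the labels state neither the number of animals behind each library nor whether replicates were separate cultures. The p-values below may thus reflect no more than technical spread among the 4 libraries. Virus insert and deletion differed together between the groups and cannot be told apart.

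Integrins are paired receptors, each built from an alpha and a beta subunit, that tie the cell's cytoskeleton to the matrix outside it or to other cells. The alpha subunit largely sets which matrix protein is bound: fibronectin and other RGD-bearing proteins, collagens, or laminins, while a further group works on leukocytes. Laminins are three-chain proteins of alpha, beta and gamma subunits that assemble into basement membranes, and in bone cells integrins carry adhesion, spreading and load sensing.

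Values were FPKM, sequenced fragments scaled by transcript length and by the size of the library, so levels could be set side by side between genes. The libraries' FPKM summed to 461677 and 471021 with Cre and to 458756 and 462419 with YFP. Collagen and mesenchymal genes of the labelled tissue were abundant (Col1a1 at 1684 to 1730 FPKM with Cre and 1707 to 1778 FPKM with YFP). Of the osteoblast genes, Alpl, Sp7, Ibsp and Bglap were at most 2.49 FPKM in every library, and Runx2 was at 10.3 to 12.1 FPKM. Bglap was at 1.27 and 0.91 FPKM with Cre and at 0 in both YFP libraries. Alpl was higher in each Cre library without passing (limma adjusted p = 0.116). Of 8 tested genes on the osteoblast and mesenchyme list, 0 rose and 2 fell (Col1a2 and Prrx1), where 16.6% of all tested genes rose and 16.3% fell. Mir17hg, the host transcript of the floxed cluster, was at 7.35 and 8.49 FPKM with Cre and at 3.29 and 3.91 FPKM with YFP. It was called higher with Cre (log2 change 0.96, limma adjusted p = 3.62e-05). The RefSeq transcript model begins after 5 of the cluster's 6 miRNAs, and the model behind the FPKM is not given. This value therefore cannot be taken as a check of the deletion.

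The 9 miRNAs of both clusters fall into 4 seed families, shown here because the shared deletion and the floxed alleles concern these miRNAs. The mature sequences (RefSeq, GRCm38.p6) are written 5′ to 3′ with the seed, bases 2 to 8, in capitals. The miR-17 family is miR-17, miR-20a, miR-106b and miR-93, and the miR-92 family is miR-92a and miR-25.
miR-17-5p: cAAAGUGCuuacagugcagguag
miR-20a-5p: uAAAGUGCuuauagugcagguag
miR-106b-5p: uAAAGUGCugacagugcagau
miR-93-5p: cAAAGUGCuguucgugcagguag
miR-18a-5p: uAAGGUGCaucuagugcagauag
miR-19a-3p: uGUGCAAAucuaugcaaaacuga
miR-19b-3p: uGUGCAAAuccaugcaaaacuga
miR-92a-3p: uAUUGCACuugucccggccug
miR-25-3p: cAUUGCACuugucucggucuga
The miR-106b, miR-93 and miR-25 sequences were absent from both groups by genotype, and the other 6 lie in the cluster that the floxed alleles carry.

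Matches to the seeds were searched in the longest annotated 3′ UTR of each gene (GENCODE M21, GRCm38), which existed for 37 of 37 members. Of the 37, 12 held at least 1 match of 7 bases. Among the tested members it was 9 of 27, or 33.3%, against 34.2% of 10976 tested genes with a UTR. By family, 11.1% of tested members held a miR-17 match, 7.41% a miR-18 match, 11.1% a miR-19 match and 14.8% a miR-92 match, against 14.9%, 9.17%, 13.7% and 7.63% of the tested genes. The median UTR was 1114 bases long in tested members and 1200 bases in tested genes. Of the 27, 11 rose with Cre (described below by class), where 16.6% of all tested genes rose, and 1 of these 11 held a match, and that was Itga5. Of the other 16 tested members, 8 held one. The UTRs of the 11 were 151 to 1321 bases long and those of the other 16 were 110 to 6994 bases long. These counts were not adjusted for UTR length. Windows of 23 bases follow for the most abundant member with a match, for Itgav with 3 matches, for the lower members Itga8 and Itga1, and for Itgb8, the tested member with sites for the miR-17 seed in 2 places. Capitals mark the 7-base match, and positions count from the first base of the annotated UTR to the first base of the match.
Itga5, miR-92 site at position 947, chr15:103344308-103344330, minus strand: tgttgcaaGTGCAATaaacccca
Itgav, miR-19 site at position 413, chr2:83803740-83803762, plus strand: tcagtaagTTTGCACaggcactt
Itgav, miR-92 site at position 1429, chr2:83804756-83804778, plus strand: ctatttttGTGCAATtacatcat
Itgav, miR-92 site at position 3080, chr2:83806407-83806429, plus strand: gttcttaaGTGCAATataacaat
Itga8, miR-92 site at position 1402, chr2:12107699-12107721, minus strand: aatgttatGTGCAATattttata
Itga1, miR-19 site at position 1230, chr13:114958846-114958868, minus strand: ctcatttgTTTGCACttctgttt
Itga1, miR-19 site at position 1876, chr13:114958200-114958222, minus strand: cattgaacTTTGCACatggagct
Itgb8, miR-17 site at position 212, chr12:119162891-119162913, minus strand: gtgttgtaGCACTTTattgtaat
Itgb8, miR-17 site at position 3938, chr12:119159165-119159187, minus strand: atttcacaGCACTTTgtaagttt
Where an A follows the capitals the site has the 8-base form, as in Itga5 and Itga8 but not in the Itgav site at position 1429. A match is a run of letters and was not tested as a binding site.

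With Cre, genes of all 3 classes rose, and 3 alpha integrins fell. Itga5, the alpha subunit of the main fibronectin receptor, and the laminin-binding Itga3, Itga6 and Itga7 were higher, while the collagen-binding Itga1 and Itga11 and the nephronectin-binding Itga8 were lower. Lama5 and Lamb1 were among the laminin chains that rose. Of the 37 members, 27 passed the filter of at least 1 FPKM in at least 2 libraries and were tested with limma on log2(FPKM + 1). At an adjusted p under 0.05, 11 rose and 3 fell. Over all 12046 tested genes, 32.9% were called, 16.6% higher and 16.3% lower. The median log2 change was 0.06 over the 27 tested members and -0.01 over all tested genes. With Cre replicate 2 left out, fewer genes were called, both among the members and over all tested genes. Itgb7, counted among the 11, passed the filter only through its Cre values, and leaving it aside 10 members rose. Itgb4 had a YFP value of 0.98 FPKM, under the filter, so it also needed a Cre value to pass.

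**Figure D1:**
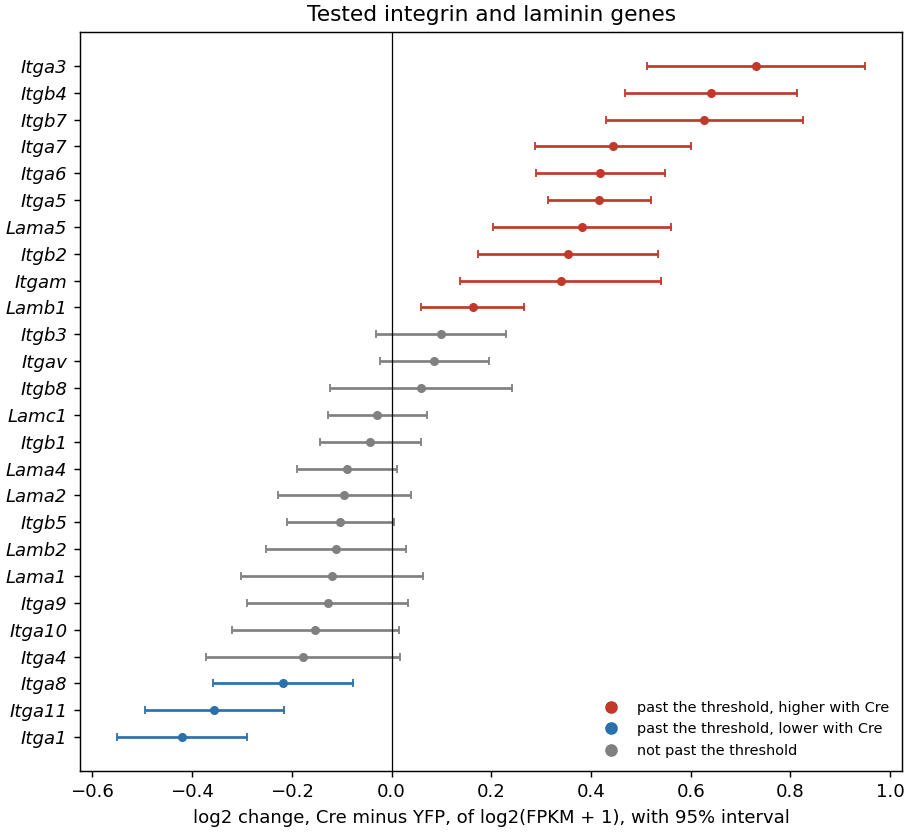
Log2 change (Cre minus YFP, on log2(FPKM + 1)) of 26 tested integrin and laminin genes, with 95% confidence intervals from limma. Red points are 10 genes past the threshold and higher with Cre, blue points the 3 that were lower, and grey points the 13 that did not pass. The red points include Itgb7, which passed the filter only through its Cre values, so they are not the 10 members counted without it. On this scale Itga3 is at the top with 0.73, although Itgb4 and Itgb7 have larger ratios of means, and Itga1 at the bottom with -0.42.

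Among the alpha subunits that bind RGD-bearing proteins such as fibronectin and vitronectin, Itga5 (Entrez 16402) was the most abundant alpha integrin of the culture. Itga5 had 160.5 and 166.0 FPKM in the Cre libraries, against 125.3 and 118.8 FPKM in the YFP libraries. Each Cre value stood above each YFP value, and the means were 163.2 ± 3.9 FPKM with Cre and 122.1 ± 4.6 FPKM with YFP (SD, n = 2 each). The log2 change was 0.42 (SE 0.05, limma adjusted p = 9.21e-05), and it lay between 0.38 and 0.45 in the 12 alternative settings. Its share of all alpha integrin FPKM was 58.6% and 60.3% in the Cre libraries, against 52.7% and 52.3% in the YFP libraries. The product of Itga5 pairs only with integrin beta 1.

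Itgav (Entrez 16410), whose product pairs with several beta subunits and binds vitronectin and latent TGF-β, was second in level. It had 40.2 and 37.6 FPKM with Cre and 36.0 and 37.1 FPKM with YFP, and the difference did not pass (log2 change 0.09, 95% interval -0.02 to 0.20, limma adjusted p = 0.213).

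Itga8 (Entrez 241226), which pairs with beta 1 and binds nephronectin, was lower with Cre. Its values were 5.14 and 4.85 FPKM with Cre, against 6.03 and 5.91 FPKM with YFP, with no overlap and a log2 change of -0.22 (SE 0.06, limma adjusted p = 0.0238). This call was the least firm of the 3 falls, with adjusted p of 0.0627 when Cre replicate 1 was left out, 0.163 without Cre replicate 2, 0.0809 without YFP replicate 1 and 0.0518 without YFP replicate 2, and 0.0509 with no filter. Itga2b, the platelet fibrinogen receptor subunit, was below the filter at 0.78 and 0.84 FPKM with Cre and 0.61 and 0.68 FPKM with YFP. Markers of platelets and megakaryocytes summed to 22.8 and 24.6 FPKM with Cre and to 17.6 and 17.9 FPKM with YFP over the 5 listed of 7. Most of the sum was Ppbp, at 16.9 and 18.5 FPKM with Cre and 12.6 FPKM in each YFP library. Gp1bb was lower in each Cre library without passing. Gp9 was at 0.27 and 0.03 FPKM with Cre and at 0 in each YFP library. Of these markers 1 of 3 tested rose (Ppbp), where 16.6% of all tested genes rose. The part of these cells in the Itga2b values was not tested.

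Of the 4 collagen-binding alpha subunits, 2 fell. Itga11 (Entrez 319480), a receptor for fibrillar collagen on mesenchymal cells, had 24.3 and 22.1 FPKM with Cre, against 31.4 and 28.4 FPKM with YFP. The Cre values lay wholly below the YFP values, and the log2 change was -0.36 (SE 0.06, limma adjusted p = 0.00196). As a share of all alpha integrin FPKM, Itga11 made up 8.86% and 8.01% with Cre and 13.2% and 12.5% with YFP.

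Itga1 (Entrez 109700), which prefers the network-forming collagen IV, had 7.07 and 7.39 FPKM with Cre, against 10.3 and 9.77 FPKM with YFP. Its log2 change was -0.42 (limma adjusted p = 3.79e-04, SE 0.06), and it was past the threshold in all 12 alternatives. Itga10, known best from cartilage, was lower in each Cre library (1.66 and 1.63 FPKM, against 1.96 and 1.92 FPKM with YFP) without passing (limma adjusted p = 0.149). Itga2 was below the filter, at 0.47 and 0.60 FPKM with Cre and 0.45 and 0.53 FPKM with YFP, and its groups overlapped.

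**Figure D2:**
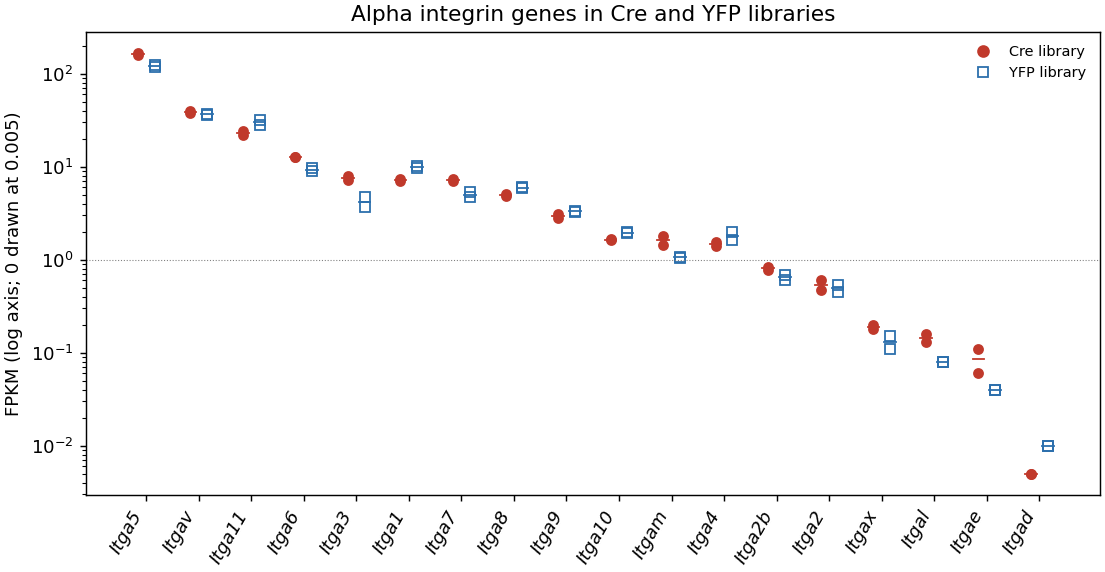
FPKM of the 18 alpha integrin genes on a log axis, in order of their Cre mean, with Cre libraries as filled circles, YFP libraries as open squares and short lines at the means. The dotted line is the filter at 1 FPKM, and 0 is drawn at the bottom of the axis. Itga5 stands above 100 FPKM in every library, and Itga11, Itga1 and Itga8 have both Cre values under both YFP values.

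All 3 alpha subunits that chiefly bind laminins rose. Itga6 (Entrez 16403), which pairs with beta 1 or beta 4, had 12.9 and 12.7 FPKM with Cre, against 9.68 and 8.92 FPKM with YFP (log2 change 0.42, SE 0.06, limma adjusted p = 3.55e-04). Itga3 (Entrez 16400), a receptor for laminins that hold the alpha 3 or alpha 5 chain, had 7.19 and 7.92 FPKM with Cre and 4.69 and 3.66 FPKM with YFP. Its log2 change was 0.73 (SE 0.10, limma adjusted p = 5.50e-04), and it ranged from 0.59 to 0.88 in the alternatives. Itga7 (Entrez 16404), the main laminin receptor of muscle fibres, had 6.98 and 7.36 FPKM with Cre and 5.33 and 4.69 FPKM with YFP (log2 change 0.44, SE 0.07, limma adjusted p = 7.97e-04). In none of these genes did the groups overlap, and each was past the threshold in all 12 alternatives.

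An exon of Itga7 overlaps one of Mettl7b on the opposite strand in GENCODE M21, and the use of strand in counting is not given in the sources used here. Reads of those overlapping genes may therefore be shared, as for Itga4 with Cerkl, Itga8 with E030013I19Rik, and Itgad with Cox6a2 and 4931431B13Rik. Markers of other cell types that use these receptors were measured beside them. Epithelial markers summed over 7 genes to 22.7 and 25.4 FPKM with Cre and to 11.9 and 11.6 FPKM with YFP, and 3 tested markers were called higher, of which Krt18 reached the filter only through its Cre values. Krt8, also among the 3, had a YFP value of 0.96 FPKM, under the filter. Most of the difference in the epithelial sum was Krt18, at 8.54 and 9.38 FPKM with Cre and 0.96 and 0.91 FPKM with YFP. Krt14 was at or under 0.03 FPKM. Epcam was at 0.26 and 0.53 FPKM with Cre and 0.11 and 0.20 FPKM with YFP. Schwann and glial markers summed to 61.0 and 63.5 FPKM with Cre and to 47.9 and 47.4 FPKM with YFP over 7 genes, with 5 of 6 tested higher. Over all tested genes, 16.6% were higher. The 6 skeletal muscle markers summed to between 65.6 and 69.1 FPKM with Cre and between 36.8 and 43.7 FPKM with YFP. Nearly all of it was Acta1, which rose (65.2 and 68.6 FPKM with Cre, 43.3 and 36.6 FPKM with YFP), and Myod1, Myog, Ckm, Pax7 and Myf5 were each at most 0.33 FPKM. The part of these cells in the rises of Itga3, Itga6 and Itga7 was not tested, and in bulk RNA more cells of a type and more RNA per cell cannot be told apart.

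The remaining alpha integrins belong to leukocytes or bind VCAM1 and related ligands, and all were low. Itgam (Entrez 16409), the alpha subunit of the macrophage receptor Mac-1, rose to 1.43 and 1.81 FPKM with Cre, against 1.08 and 1.05 FPKM with YFP (log2 change 0.34, SE 0.09, limma adjusted p = 0.0157). With a pseudocount of 0.1 the log2 change was 0.55, and the ratio of means was 1.52. Leaving out Cre replicate 2 ended this call (log2 change 0.23, adjusted p = 0.176). Itga4 (1.55 and 1.40 FPKM with Cre, 1.63 and 1.98 FPKM with YFP) and Itga9 (3.12 and 2.81 FPKM with Cre, 3.29 and 3.37 FPKM with YFP) were lower in each Cre library, with limma adjusted p of 0.147 and 0.209. Below the filter, Itgax, Itgal and Itgae were at most 0.20 FPKM, each with both Cre values above both YFP values. Itgad was listed at 0 in both Cre libraries and at 0.01 FPKM in both YFP libraries.

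The beta integrins were dominated by a subunit that did not pass. Itgb1 (Entrez 16412), the partner of most of the alpha subunits above, had 590.3 and 587.7 FPKM with Cre and 600.2 and 613.1 FPKM with YFP. The difference was small (log2 change -0.04, 95% interval -0.14 to 0.06, limma adjusted p = 0.519). Its share of all beta integrin FPKM was 82.9% and 82.5% with Cre and 82.0% and 83.2% with YFP. The partners of beta 1 therefore differed in direction beside a beta 1 level whose interval included 0.

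Itgb5 (Entrez 16419), which pairs with the alpha V subunit and binds vitronectin, was second with 106.6 and 108.6 FPKM with Cre and 119.7 and 111.6 FPKM with YFP. Both Cre values lay under both YFP values, but the difference did not pass (log2 change -0.10, limma adjusted p = 0.129) except without YFP replicate 2 (log2 change -0.15, adjusted p = 0.0363). Itgb3, the other vitronectin receptor partner, known in bone chiefly from osteoclasts, had 7.68 and 7.79 FPKM with Cre and 7.03 and 7.28 FPKM with YFP (limma adjusted p = 0.224). Itgb8, an activator of latent TGF-β, overlapped between groups at 1.7 and 1.5 FPKM with Cre and 1.43 and 1.56 FPKM with YFP (limma adjusted p = 0.627), and it carried 4 seed matches, the most of any member.

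The 3 beta subunits that rose were all scarce. Itgb4 (Entrez 192897), which pairs with the alpha 6 subunit in the hemidesmosomes that fix epithelia to basement membrane, had 2.10 and 2.15 FPKM with Cre, against 1.03 and 0.98 FPKM with YFP. The mean in Cre libraries was 2.11-fold that in YFP libraries, and the log2 change on log2(FPKM + 1) was 0.64 (SE 0.08, limma adjusted p = 1.50e-04). Its YFP value of 0.98 FPKM was under the filter, so Itgb4 passed the filter only with its Cre values counted. With no filter its limma adjusted p was 0.00284. Itgb7 (Entrez 16421), the beta subunit of lymphocyte homing receptors, had 1.81 and 2.21 FPKM with Cre and 0.98 and 0.91 FPKM with YFP, a ratio of means of 2.13. Because its Cre values alone brought Itgb7 past the filter, its test is given from the fit with no filter (log2 change 0.63, limma adjusted p = 0.00650). Itgb2 (Entrez 16414), the beta subunit of leukocyte integrins including Mac-1, had 1.67 and 1.88 FPKM with Cre and 1.16 and 1.18 FPKM with YFP (log2 change 0.35, SE 0.08, limma adjusted p = 0.00722). Itgb2 no longer passed with Cre replicate 2 left out (log2 change 0.30, adjusted p = 0.0930), whereas Itgb4 passed in each alternative in which it was tested. With a pseudocount of 0.1 the log2 changes of Itgb4, Itgb7 and Itgb2 were 1.01, 1.01 and 0.56. Itgb6, an epithelial subunit, was below the filter at 0.32 and 0.26 FPKM with Cre and 0.15 and 0.17 FPKM with YFP.

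Part of the leukocyte markers were higher with Cre, as Itgb2 and Itgam were. The 10 macrophage and leukocyte markers summed to 135.6 and 145.3 FPKM with Cre and to 106.9 and 104.7 FPKM with YFP. Of 8 tested, 5 were higher and 1 lower, beside 16.6% and 16.3% of all tested genes. Lyz2, the myeloid lysozyme gene, made up most of the sum, and Cd53 was the marker that fell. Cd68 and Coro1a did not pass (limma adjusted p = 0.0552 and 0.290). The pan-leukocyte marker Ptprc stayed under the filter, at 0.37 and 0.29 FPKM with Cre and 0.32 and 0.27 FPKM with YFP. The part of leukocytes in the rises of Itgb2, Itgb7 and Itgam was not tested.

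**Figure D3:**
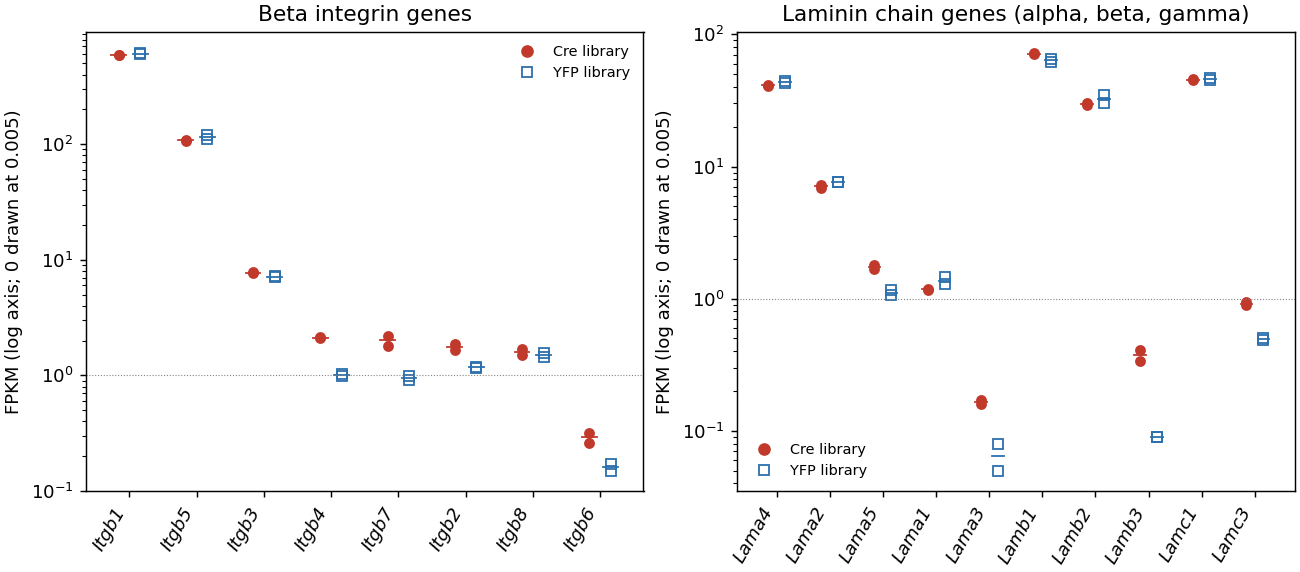
FPKM of the 8 beta integrin genes and 10 laminin chain genes on log axes, with Cre libraries as filled circles, YFP libraries as open squares and short lines at the means. The dotted line marks the filter at 1 FPKM. The abundant genes Itgb1, Itgb5, Lama4 and Lamc1 differ little between groups, and the Cre points of Itgb4, Itgb7, Lama3, Lamb3 and Lamc3 stand clear of the YFP points.

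Among the abundant laminin chains, Lamb1 rose slightly, and Lama4, Lamb2 and Lamc1 did not pass. The scarce Lama5 rose as well. By limma 0 chains fell, and at an unadjusted p under 0.05 the count of falls was also 0. Lama4, the alpha chain of mesenchymal and vascular laminins, made up 80.0% and 80.3% of alpha chain FPKM with Cre and 81.1% in each YFP library. Its level was 41.2 and 40.9 FPKM with Cre and 44.6 and 43.0 FPKM with YFP, lower in each Cre library without passing (log2 change -0.09, limma adjusted p = 0.154). Lama2, the alpha chain of the laminin around muscle fibres and nerves, had 7.29 and 6.89 FPKM with Cre and 7.67 and 7.60 FPKM with YFP (limma adjusted p = 0.258). Lama1, an embryonic chain, had 1.18 and 1.17 FPKM with Cre and 1.45 and 1.28 FPKM with YFP (limma adjusted p = 0.298).

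Lama5 (Entrez 16776), a broadly used chain of mature epithelial and vascular basement membranes, was the alpha chain that rose. It had 1.69 and 1.81 FPKM with Cre, against 1.16 and 1.06 FPKM with YFP, with no overlap. The ratio of means was 1.58, and the log2 change was 0.61 with a pseudocount of 0.1. In the main test the log2 change was 0.38 (SE 0.08, limma adjusted p = 0.00455), which no longer passed once Cre replicate 2 was left out (log2 change 0.35, adjusted p = 0.0643). Endothelial markers summed to 5.94 and 6.53 FPKM with Cre and to 5.16 and 5.32 FPKM with YFP over 8 genes, with 0 of 3 tested past the threshold. These 3, Esam, Cdh5 and Kdr, each had both Cre values above both YFP values. The other 5 overlapped between groups, among them Pecam1 at 0.37 and 0.39 FPKM with Cre and 0.42 and 0.36 FPKM with YFP. Smooth muscle and pericyte markers summed to 3005 and 3067 FPKM with Cre and to 3556 and 3444 FPKM with YFP. Most of the sum was Acta2, at 1894 and 1916 FPKM with Cre and 2377 and 2264 FPKM with YFP. Of these 8 markers 2 were higher (Mcam and Des) and 2 lower (Acta2 and Cnn1). Over all tested genes, 16.6% were higher and 16.3% lower. The part of endothelial or smooth muscle cells was not tested.

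Lamb1 (Entrez 16777), the common beta chain, rose slightly. It had 72.1 and 70.9 FPKM with Cre, against 65.5 and 62.1 FPKM with YFP (log2 change 0.16, SE 0.05, limma adjusted p = 0.0213), and both Cre values lay above both YFP values. Lamb1 no longer passed when Cre replicate 1, Cre replicate 2 or YFP replicate 2 was left out (adjusted p = 0.149, 0.114 and 0.0875), and also with no filter or with neither trend nor robust moderation. Lamb2, the beta chain of synaptic and kidney laminins, overlapped between groups at 30.3 and 29.4 FPKM with Cre and 34.6 and 30.2 FPKM with YFP (limma adjusted p = 0.203). Without YFP replicate 2 it passed as lower (log2 change -0.21, adjusted p = 0.0126). Lamc1, the common gamma chain, had 45.6 and 44.9 FPKM with Cre and 47.0 and 45.5 FPKM with YFP (log2 change -0.03, limma adjusted p = 0.670).

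Lama3 and Lamb3 encode chains of laminins that anchor the epidermis. Lamb3 was below the filter and not part of the main test, at 0.34 and 0.41 FPKM with Cre and 0.09 FPKM in each YFP library, a ratio of means of 4.17. Lama3 was at 0.16 and 0.17 FPKM with Cre and 0.08 and 0.05 FPKM with YFP. Lamc3, a gamma chain of nerve and skin, was at 0.94 and 0.89 FPKM with Cre and 0.50 and 0.49 FPKM with YFP. With no filter, Lamb3 and Lamc3 passed (limma adjusted p = 0.00599 and 0.0161), and Lama3 passed with a pseudocount of 1 (limma adjusted p = 0.0422) but not of 0.1 (limma adjusted p = 0.0594).

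Of the 10 members below the filter, 8 had both Cre values above both YFP values, 1 overlapped and 1 (Itgad) was lower. Among all 7125 genes below the filter, 25.8% (1837 genes) had both Cre values above both YFP values, and 712 had both below. Genes above 0 FPKM numbered 17952 and 17891 in the Cre libraries and 17452 and 17445 in the YFP libraries. Of the epithelial markers given above, Krt18 and Epcam were also higher in each Cre library. So were Cdh1, at 0.44 and 0.47 FPKM with Cre and 0.16 and 0.19 FPKM with YFP, and Krt5. The latter was at 0.15 and 0.13 FPKM with Cre and 0.01 FPKM in each YFP library. Krt14 was at 0 and 0.02 FPKM with Cre and 0 and 0.03 FPKM with YFP. The part of epithelial cells in the laminin chain values was not tested.

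**Figure D4:**
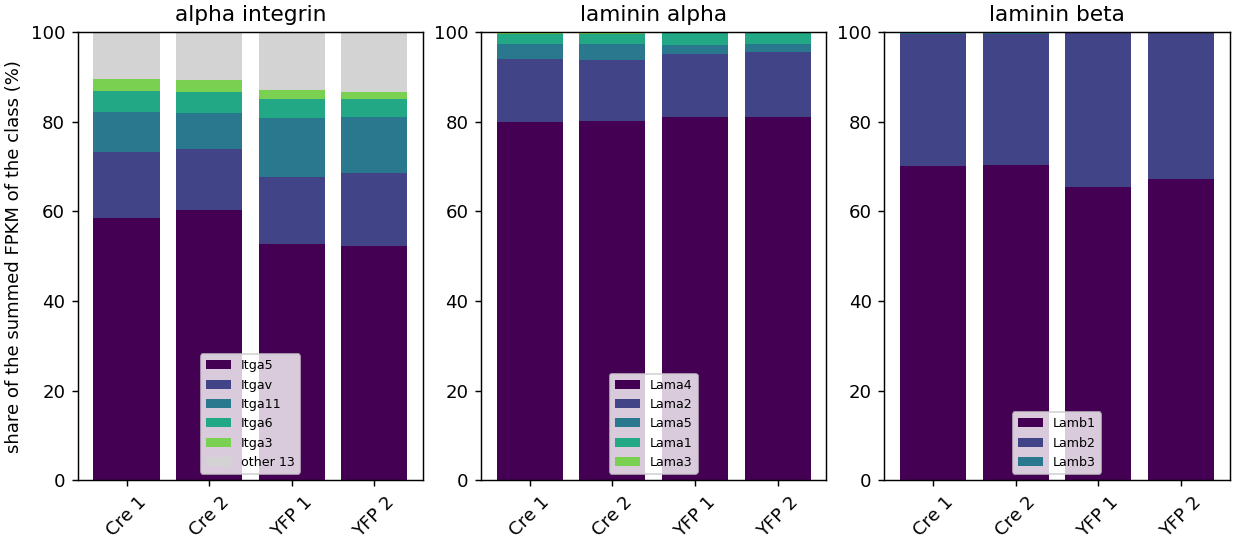
Share of the summed FPKM of each class held by each gene in each library, for alpha integrins and for laminin alpha and beta chains. Grey is the sum of the other 13 alpha integrins. Itga5 takes 58.6% and 60.3% of the alpha integrin sum in Cre libraries against 52.7% and 52.3% in YFP libraries, and Lama4 and Lamb1 lead their classes in all 4 libraries.

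Summed over subunits, alpha integrins reached 273.6 and 275.3 FPKM with Cre, against 238.0 and 227.0 FPKM with YFP, a ratio of means of 1.18. Most of the added FPKM was Itga5. Beta integrins summed to 712.2 and 712.0 FPKM with Cre and to 731.7 and 736.8 FPKM with YFP, a ratio of 0.97. The laminin alpha chains summed to 51.5 and 50.9 FPKM with Cre and to 54.9 and 53.0 FPKM with YFP. Beta chains summed to 102.8 and 100.6 FPKM with Cre and to 100.2 and 92.4 FPKM with YFP. These sums were not tested.

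Promoters, from 250 bases before to 50 after a start site (RefSeq, GRCm38.p6), were listed for 23 of the 37 members. They were searched on both strands for the GC box GGGCGG, the AP-1 motif TGANTCA and the E-box CACGTG. Of the 11 members that rose, 6 had a listed promoter, Itgb7 among them. A GC box was held by 5 of these 6 members and 0 of 3 that fell, by 5 of 9 tested members that did not pass, and by 35.7% of 32851 promoters. An AP-1 motif was held by 1 of the 6, 0 of the 3 and 1 of the 9, and by 7.81% of all promoters, and no E-box was found in a member's promoter. Members were counted per gene, whereas both percentages count every listed promoter, of tested and untested genes alike. They are therefore not a matching background, and the share among tested genes was not computed. More than 1 GC box was also held by Lama5 (4) and Lamb1 (2), which rose, and by Itgb5 (3), which did not pass. The promoters of the higher genes Itga5 and Itga3 are shown as examples with several GC boxes, in capitals on either strand.
Itga5, chr15:103366742-103367041, minus strand: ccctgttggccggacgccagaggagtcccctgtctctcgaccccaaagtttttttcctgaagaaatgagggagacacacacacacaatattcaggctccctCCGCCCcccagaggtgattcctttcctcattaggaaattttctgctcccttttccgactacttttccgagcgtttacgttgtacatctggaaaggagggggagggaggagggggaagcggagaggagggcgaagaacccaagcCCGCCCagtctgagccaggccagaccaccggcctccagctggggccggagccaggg
Itga3, chr11:95076665-95076964, minus strand: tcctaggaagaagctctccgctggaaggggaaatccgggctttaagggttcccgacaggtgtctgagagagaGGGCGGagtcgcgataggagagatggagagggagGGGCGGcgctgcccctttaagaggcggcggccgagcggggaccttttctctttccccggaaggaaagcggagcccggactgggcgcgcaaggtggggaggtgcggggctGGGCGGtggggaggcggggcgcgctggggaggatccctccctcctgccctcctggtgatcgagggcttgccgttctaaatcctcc
The second listed Itga3 promoter holds 1 GC box and 1 AP-1 motif. The promoters of Itga1, Itga8 and Itga11, the members that fell, hold none of the 3 motifs. These matches describe letters in the window and say nothing of binding.

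Partners of the integrins and laminins were followed in 4 lists chosen with earlier results of these data known. The genes with the smallest p in each list are named, and Col4a1, Agrn, Nid1, Nid2, Hspg2, Fn1, Npnt, Tln1 and Dag1 were added after their values were seen. The counts of each list stand beside 16.6% of all tested genes higher and 16.3% lower. Among 13 tested basement membrane partners of the laminins, 6 rose and 2 fell (median log2 change 0.07), and the 2 of 13 lower were close to the share over all genes, with the collagen IV chains in opposite directions. Col4a1 and Col4a2, the widespread chains, rose to 154.9 FPKM in each Cre library and to 125.4 and 122.7 FPKM, against 128.0 and 126.8 FPKM and 100.5 and 96.1 FPKM with YFP. Col4a5, a chain of restricted networks, fell to 8.08 and 7.53 FPKM with Cre, against 12.1 FPKM in each YFP library (log2 change -0.57, limma adjusted p = 4.69e-05). Col18a1 and Col15a1, basement membrane zone collagens, rose by 0.42 and 0.43 on the log2 scale (limma adjusted p = 4.98e-05 and 3.18e-04). Agrn and Nid1 rose as well, and Nid2 fell. Nid1 did not pass with Cre replicate 1 left out (adjusted p = 0.0712). Nid2 did not pass with Cre replicate 2 or YFP replicate 1 left out (adjusted p = 0.176 and 0.0560), which left 1 lower gene. The laminin-binding proteoglycan gene Hspg2 did not pass (limma adjusted p = 0.260).

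Among 18 tested integrin ligands outside the laminins and collagens, 9 rose and 6 fell (median log2 change 0.06), and without Cre replicate 2 the counts were 7 and 1, where 1058 genes in all were higher and 814 lower. Npnt was the gene that stayed lower there. Icam1, the ligand of the leukocyte integrins, had 27.3 and 28.6 FPKM with Cre, against 14.9 and 14.6 FPKM with YFP (log2 change 0.88, limma adjusted p = 9.70e-07). Ecm1, Lgals3 and Tnc, a matrix protein, a galectin and tenascin C, rose by 0.76, 0.66 and 0.43 on the log2 scale (limma adjusted p = 1.01e-06, 3.97e-06 and 5.85e-05). Fn1 and Npnt encode the chief ligands of the receptors built on Itga5 and Itga8. Fn1, fibronectin, fell to 1556 and 1435 FPKM with Cre, against 1788 and 1722 FPKM with YFP (log2 change -0.23, limma adjusted p = 0.00813), and leaving out Cre replicate 2 ended the call (log2 change -0.17, adjusted p = 0.140). Npnt, nephronectin, had 7.97 and 7.91 FPKM with Cre, against 11.2 and 12.9 FPKM with YFP (log2 change -0.54, limma adjusted p = 1.90e-04). Fibronectin RNA and Itga5 RNA thus differed in opposite directions, and Npnt and Itga8 were both lower.

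Of 27 tested adaptors and focal adhesion proteins, which link integrin tails to actin and to kinases, 7 rose and 5 fell (median log2 change 0.07), the 5 being close to the share of lower calls over all genes. Without Cre replicate 1 the counts were 5 and 2 (1283 and 1101 over all genes), and without Cre replicate 2 they were 6 and 1. Without YFP replicate 2 they were 6 and 3 (1862 and 1698 over all genes). Ptk2b, a kinase related to focal adhesion kinase, had 8.49 and 8.34 FPKM with Cre, against 4.85 and 4.93 FPKM with YFP (log2 change 0.68, limma adjusted p = 1.90e-05). Parvb, Pxn and Bcar1, which encode a parvin, paxillin and a docking protein, rose by 0.64, 0.40 and 0.36 on the log2 scale (limma adjusted p = 1.53e-04, 1.29e-04 and 1.72e-04). Tln1, the talin that activates integrins, had 72.1 and 71.4 FPKM with Cre and 76.2 and 72.2 FPKM with YFP and did not pass (limma adjusted p = 0.476).

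Of 12 tested laminin receptors outside the integrins, 3 rose and 3 fell (median log2 change -0.01), close to the shares over all genes. The syndecan genes Sdc1 and Sdc3 rose by 0.45 and 0.32 on the log2 scale, and Sdc2 fell by 0.37 (limma adjusted p = 4.27e-05, 6.19e-04 and 1.17e-04). Bcam, a receptor for laminins with the alpha 5 chain, had 2.66 and 3.22 FPKM with Cre, against 1.34 and 0.94 FPKM with YFP (log2 change 0.88, limma adjusted p = 2.39e-04). Its YFP value of 0.94 FPKM was under the filter, so Bcam passed the filter only with its Cre values counted. With no filter, 3 genes of this list rose and 2 fell, where 1960 genes in all were higher and 1439 lower. For Bcam and for Lama5 both Cre values lay above both YFP values, and a link between these genes was not tested. Dag1, dystroglycan, did not pass at 66.2 and 63.7 FPKM with Cre and 63.8 and 64.5 FPKM with YFP (limma adjusted p = 0.811).

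**Figure D5:**
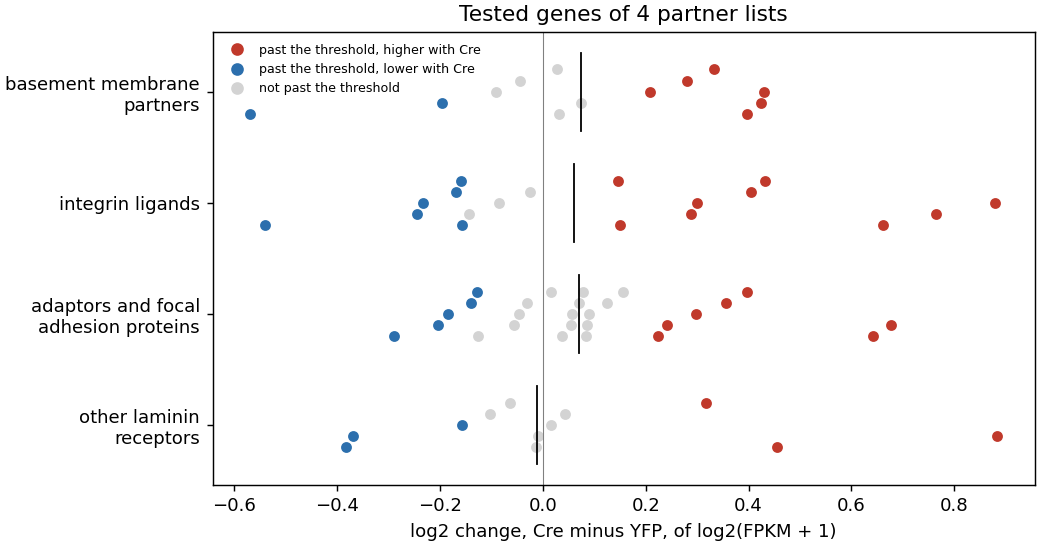
Log2 change (Cre minus YFP, on log2(FPKM + 1)) of the tested genes in 4 partner lists, with black bars at the medians of 0.07, 0.06, 0.07 and -0.01 from top to bottom. Red points passed as higher with Cre (6, 9, 7 and 3 genes), blue points as lower (2, 6, 5 and 3 genes), and grey points did not pass.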

How the data were processed

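Polyadenylated RNA of 2 Cre and 2 YFP libraries was sequenced single-end on a BGISEQ-500, per the labels' protocols. The authors deposited 1 table of FPKM values with 2 decimals; Bowtie 02.2.5 and the mm8 build are named in the submitters' processing notes, but the FPKM program, the annotation and strand handling are not given there. Without read counts the depth is unknown, so counting error has no interval here. Genes that reached 1 FPKM in 2 or more libraries were tested with limma 3.58.1 (R 4.3.3, trend and robust empirical Bayes) on log2(FPKM + 1), two-sided, with Benjamini-Hochberg adjustment over all 12046 tested genes and a threshold of 0.05. This scale understates changes of low genes. The fit was tested on simulated data. Seed matches and promoters were read with Biopython 1.88 from GENCODE M21 and RefSeq tables, of another build than the expression values and matched by symbol. Members and lists were chosen with earlier results of these data known. One member is not reported here. The other members are accounted for, those past the threshold with full statistics, and of each partner list the 4 genes with the smallest p.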

Additional observations from a re-analysis of the deposited data

How the results depend on the processing

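The 27 tested members were refitted under 12 alternatives, of which the fit with no filter and a pseudocount of 0.1 was chosen after seeing the data. No member past the threshold changed direction. The count of all genes called was 3961 (1998 higher, 1963 lower), with 11 members higher and 3 lower. With a mean FPKM of at least 5, 16 members were tested and 5 rose, since fewer genes were tested. Leaving out 1 library at a time gave 1872 to 3560 genes called, 7 to 11 members higher and 2 to 4 lower, with the lowest counts without Cre replicate 2; the lone library left in a group is then assumed to vary like the other group. The median log2 change of all tested genes was -0.01 as deposited, -0.02 with median-of-ratios scaling and -0.03 on the TPM scale, with 11 members higher and 3 lower in each. The labels number the libraries 1 and 2 in both groups, but deviations of same-numbered libraries correlated at r = -0.03 over 12046 genes, so the numbers were not taken to pair them. With a replicate block, 3533 genes were called and the member counts were 11 higher and 3 lower. FPKM values with 2 decimals and no counts limit what can be said of the 10 members below the filter.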

Other observations

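Other listed genes with related names fell outside the symbols that define the families and were chosen after their values were seen. Itgbl1, an integrin beta-like secreted protein, had 13.8 and 13.6 FPKM in Cre libraries, against 23.4 and 22.9 FPKM in YFP libraries (log2 change -0.72, limma adjusted p = 3.74e-06). Its log2 change was larger in size than that of the members that fell. Ntn4, a netrin that binds laminin gamma chains, had 6.48 and 6.45 FPKM with Cre, against 4.96 and 4.54 FPKM with YFP (log2 change 0.38, limma adjusted p = 0.00143). Ntn1 rose as well (log2 change 0.24, limma adjusted p = 0.0377), at 2.85 and 2.51 FPKM with Cre and 2.04 and 2.18 FPKM with YFP. Itgb1bp1, an inhibitor of beta 1 integrin activation, had 20.2 and 20.9 FPKM with Cre and 21.0 and 18.6 FPKM with YFP, with overlapping groups (limma adjusted p = 0.520).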
